A study of Mus musculus with 24 samples.

Results

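This account follows 39 genes of mitochondrial protein import, folding and quality control through mouse liver after an injection of MitoCDNB. They are all rows of the count table, 39 of 24421, whose symbol is Timm or Tomm followed by a digit, plus the chaperone, protease and prohibitin genes Hspd1, Hspe1, Hspa9, Lonp1, Clpp, Clpx, Trap1, Dnaja3, Afg3l2, Spg7, Htra2, Phb, Phb2 and Grpel1. By role they were 11 Tomm rows, set under the outer membrane translocase (TOM), and 7 rows of the inner membrane translocases TIM22 and TIM23. The rest were 7 small TIM chaperones, 6 matrix chaperones and co-chaperones, and 8 proteases and prohibitins. The Tomm rows were grouped by symbol and include Tomm34, a cytosolic co-chaperone, and the antisense row Tomm6os.

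RNA was sequenced from the medial liver lobe of C57BL/6 mice. The 4 groups received vehicle with 0.1% ethanol or MitoCDNB at 5 mg/kg, and liver was taken at 1 h or 4 h, with 6 libraries per group. MitoCDNB carries a chlorodinitrobenzene group on a lipophilic triphenylphosphonium cation, which mitochondria take up, and was designed to disturb the thiol redox systems of the matrix. The labels give 6 samples per group and do not tie each library to its own animal, so p-values measure the spread between these samples.

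Nearly all mitochondrial proteins are made in the cytosol. They enter through the TOM channel, are handed across the intermembrane space by small TIM chaperones, and pass the inner membrane through TIM23 or, for carrier proteins, TIM22. In the matrix an ATP-driven chaperone pulls them in, the chaperonin folds them, and ATP-dependent proteases remove those that fail. Transcripts of the chaperonin and of the matrix proteases are classical readouts of the mitochondrial unfolded protein response, and hepatocytes, rich in mitochondria, express the whole set.

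Promoter stretches are shown first for the genes that carry the main differences below, namely Tomm40, Timm10 and Timm17a, and for the shared start of Hspd1 and Hspe1. RefSeq promoters (build GRCm38.p6) were matched by symbol for 33 of the 39 members, and Tomm40l, Hspa9, Afg3l2, Timm21, Tomm7 and Htra2 had no match. The Tomm40 stretch (chr7:19715439-19715679, minus strand) ends just before the outermost annotated start, and capitals mark CCAAT or its reverse complement ATTGG. The same marking holds for Timm17a (chr1:135313779-135313987, minus strand) and for Timm10 (chr2:84826771-84826996, plus strand), where nothing is in capitals. The printed Timm10 stretch leaves out the last 24 bases before the RefSeq start, and the search of the whole window found an ETS motif in Timm10. The fourth, 30 bases at the divergent starts of Hspd1 and Hspe1 (chr1:55088056-55088085, plus strand), lies within the annotated Hspd1 gene and before the annotated start of Hspe1, and the annotated genes overlap by 112 bases. It has in capitals a heat shock element, GAANNTTC, that overlaps a pair of ETS motifs, CCGGAAG and its reverse complement CTTCCGG.
Tomm40: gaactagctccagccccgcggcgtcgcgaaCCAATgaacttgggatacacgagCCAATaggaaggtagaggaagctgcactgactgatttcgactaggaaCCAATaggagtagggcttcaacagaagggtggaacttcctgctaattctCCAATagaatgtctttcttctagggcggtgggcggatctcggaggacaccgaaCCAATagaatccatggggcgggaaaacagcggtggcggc
Timm17a: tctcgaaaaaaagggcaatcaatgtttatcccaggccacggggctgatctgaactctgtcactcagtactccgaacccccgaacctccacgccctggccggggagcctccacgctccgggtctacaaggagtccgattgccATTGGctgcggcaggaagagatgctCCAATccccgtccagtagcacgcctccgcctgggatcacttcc
Timm10: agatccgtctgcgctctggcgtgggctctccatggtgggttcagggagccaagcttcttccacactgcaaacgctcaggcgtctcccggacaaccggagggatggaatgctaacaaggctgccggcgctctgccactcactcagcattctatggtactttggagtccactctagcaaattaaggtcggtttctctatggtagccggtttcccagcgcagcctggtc
Hspd1-Hspe1 element: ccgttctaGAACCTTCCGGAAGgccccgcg

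Searched over both strands of the 250 bases before each start, CCAAT lay in 11 of the 33 member promoters, against 35.1% of the promoters of all tested genes. Tomm40 held 5 copies, a number reached by 0.4% of the promoters of tested genes. This motif was chosen after the Tomm40 sequence had been seen. Of the motifs on the list, the ETS motif lay in 11 of the 33 member promoters against 12.5% for tested genes. CACGTG, the E-box, lay in 7 against 8.1%, namely Hspd1, Lonp1, Phb, Timm8a1, Timm9, Tomm20 and Tomm20l. The core motif of NRF1, a regulator of nuclear genes for mitochondria, lay in 4 against 7.4%. The heat shock element lay in 3, Hspd1, Hspe1 and Timm9, against 5.1%. The CHOP and ATF4 composite element of the unfolded protein response, TGATGCAAT, lay in 0 against 0.1%. A match is a string of letters and not a bound site.

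Library totals ran from 25.1 M to 37.2 M counts. Values are given as CPM, counts relative to the library total, with edgeR's TMM scaling of library sizes, and differences are log2 fold changes from edgeR's quasi-likelihood test with Benjamini-Hochberg adjustment over 13833 tested genes. A gene is called at an adjusted p under 0.05. Of the 39 members, 38 were tested. Timm8a2, a paralog of Timm8a1, had 0 to 3 counts per library, at most 0.0999 CPM, where a count of 0 allows a level of up to 0.0843 to 0.122 CPM. The hepatocyte markers, 10 of 10 detected, summed to 59200 to 85000 CPM in all libraries. Snap25 and Mobp, brain transcripts, were at 0 in every library other than replicates 4 to 6 of both 1 h groups. The 10 brain markers summed to 71 to 110 CPM over all groups, with overlapping ranges. Without Slc1a2, which hepatocytes also express, the other 9 summed to 12.6 to 15.3 CPM in vehicle and 11.8 to 16.8 CPM in MitoCDNB in these replicates, against 8.67 to 10.2 and 6.46 to 10 CPM in replicates 1 to 3, and 7.18 to 11.4 and 6.39 to 13.1 CPM at 4 h. Among the 4 h libraries, replicate 1 of vehicle and replicate 2 of MitoCDNB had scores of -25.2 and -31.1 on the second principal component, below all other libraries. In bulk tissue, fewer cells of a type and less RNA per cell cannot be told apart.

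Per kilobase of exon, taken as the union of all annotated exons of a gene, the chaperones led. In vehicle at 1 h, Hspd1, the large subunit of the chaperonin, stood at 103 CPM per kb, followed by Hspa9, the matrix Hsp70 that drives import, at 72.6 CPM per kb and Hspe1, the small chaperonin subunit, at 56.8 CPM per kb. Trap1, the mitochondrial Hsp90, stood at 46.1 CPM per kb. Among the import genes Tomm6 (39.1 CPM per kb), Timm8b (35.6) and Timm13 (33.1) were highest, while the channel gene Tomm40 stood at 4.89 CPM per kb and Timm17a at 1.51. Among the proteases Clpx (28.5 CPM per kb), Lonp1 (27.0) and Clpp (23.9) lay close together. Tomm20l, a paralog of the receptor gene Tomm20, was at 0.428 CPM per kb, with 4 to 19 counts per library.

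The comparison of MitoCDNB with vehicle at 1 h asked whether the compound moved these genes soon after the injection. No member passed the test, 0 of 38, where 6.57% of all tested genes were called, 2.7% higher and 3.87% lower. At an unadjusted p under 0.05 there were 4 of 38 members and 2443 of 13833 tested genes. DESeq2 and limma-voom each called 1 member, Tomm40l, and 1063 and 1298 genes in all. The 38 log2 differences had a median of -0.00, against 0.00 over all tested genes, with 18 above and 20 below 0. The 6 MitoCDNB libraries overlapped the 6 vehicle libraries in every member, where 2.19% of all tested genes lay wholly above and 2.54% wholly below. In 35 of the 38 members the 95% interval of the difference lay within a 1.5-fold change in either direction, as it did in 9469 of 13833 tested genes.

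At 4 h, likewise, 0 of 38 members were called, where 0.824% of all tested genes were, 0.455% higher and 0.369% lower. At an unadjusted p under 0.05 there were 5 of 38 members and 1981 of 13833 tested genes. DESeq2 and limma-voom each called 1 member, Tomm40, and 348 and 227 genes in all. The median log2 difference was 0.01, against -0.00 over all tested genes, with 19 members on each side of 0, and the groups again overlapped in every member, where 0.578% of all tested genes lay wholly above and 0.318% wholly below. The 95% interval lay within 1.5-fold in 36 of 38 members and in 9781 of the 13833 tested genes. The difference between both treatment effects, 4 h minus 1 h, was called in 0 of 38 members, against 4.07% of all tested genes (2.38% higher, 1.69% lower). Here 4 members and 2343 of all tested genes had an unadjusted p under 0.05, DESeq2 called 0 members and limma-voom called 1, Tomm40. For treatment at 4 h, 1 of 6 endothelial markers was called higher and 3 lower, and 1 of 10 hepatocyte markers higher. At 1 h 1 of 6 endothelial, 1 of 5 cholangiocyte and 1 of 2 lymphocyte markers were called higher. The 3 tested neutrophil markers lay wholly above vehicle at 1 h, uncalled. None of the Kupffer, stellate or red blood cell markers was called. The part of these cells was not tested.

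**Figure D1:**
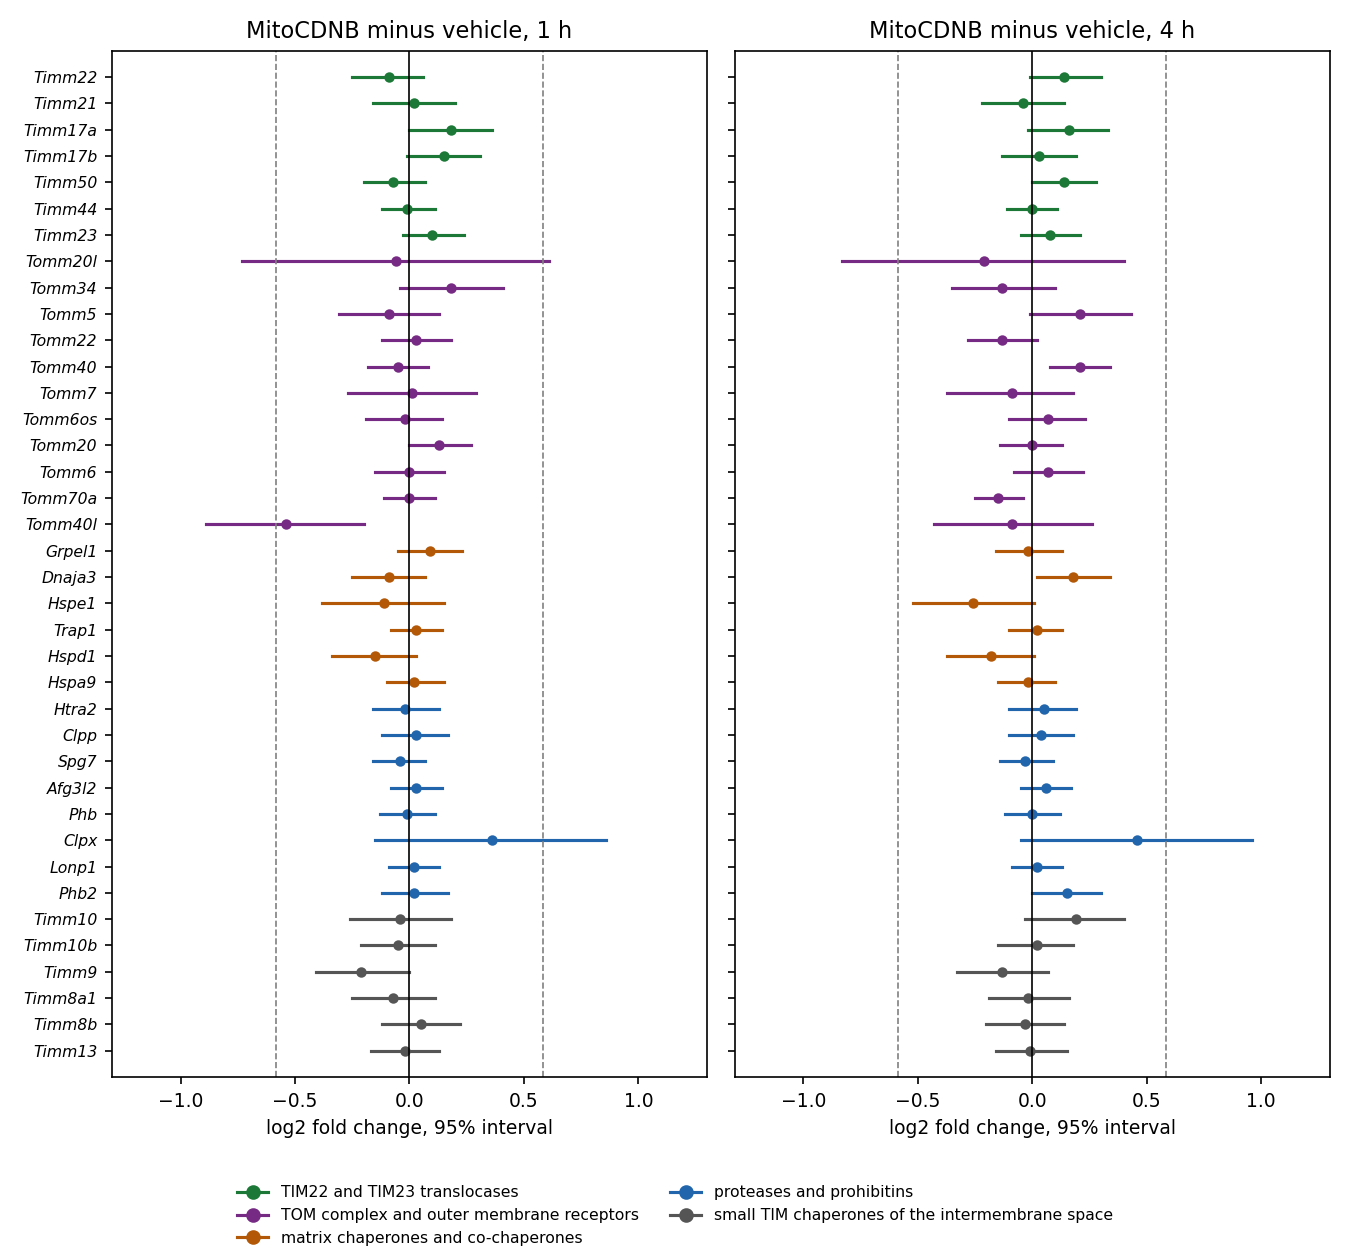
Log2 fold change of MitoCDNB over vehicle (x axis) with its 95% interval for the 38 tested genes (y axis), at 1 h on the left and at 4 h on the right, coloured by role. Dashed lines mark a 1.5-fold change, which 35 intervals at 1 h and 36 at 4 h do not reach; Clpx and Tomm20l have wide intervals at both times.

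Among the matrix chaperones, Hspd1 ran from 233 to 320 CPM in vehicle at 1 h (median 266) and from 209 to 293 CPM in MitoCDNB (median 238). The log2 difference was -0.15 (95% interval -0.34 to 0.03, adjusted p = 0.418). At 4 h vehicle ran from 251 to 329 CPM (median 277) and MitoCDNB from 221 to 277 CPM (median 248), a log2 difference of -0.18 (-0.37 to 0.01, adjusted p = 0.372). All 6 MitoCDNB libraries of 4 h lay below the vehicle mean, but the ranges overlapped. Its partner Hspe1 followed with 67.1 to 100 CPM in vehicle (median 85.4) and 54.3 to 97.1 CPM in MitoCDNB (median 79.0) at 1 h, a log2 difference of -0.11 (-0.38 to 0.15, adjusted p = 0.750). At 4 h Hspe1 ran from 67.8 to 116 CPM in vehicle (median 87.3) and from 66.3 to 84.0 CPM in MitoCDNB (median 75.8), a log2 difference of -0.26 (-0.52 to 0.01, adjusted p = 0.367). The medians of both chaperonin genes were lower in MitoCDNB at both times without passing the test, and the 4 intervals reach up to a log2 difference of 0.15.

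Hspa9, which ratchets precursors through TIM23, ran from 307 to 319 CPM in vehicle (median 313) and from 302 to 336 CPM in MitoCDNB (median 318) at 1 h, a log2 difference of 0.02 (-0.10 to 0.15). At 4 h vehicle ran from 271 to 379 CPM (median 325) and MitoCDNB from 294 to 334 CPM (median 325), a log2 difference of -0.02 (-0.15 to 0.10). Its nucleotide exchange factor Grpel1 differed by 0.09 (-0.05 to 0.23) and -0.02 (-0.16 to 0.13), and Trap1 by 0.03 (-0.08 to 0.14) and 0.02 (-0.10 to 0.13), at 1 h and 4 h. Dnaja3, a J-domain co-chaperone of Hspa9, had the smallest p of this group at 4 h. It ran from 58.9 to 86.2 CPM in vehicle (median 68.0) and from 71.6 to 89.9 CPM in MitoCDNB (median 78.0), and all 6 MitoCDNB libraries lay above the vehicle mean. On the log2 scale the difference was 0.18 (SE 0.0773, adjusted p = 0.275), and 0.25 (adjusted p = 0.0496) without vehicle replicate 1, the highest vehicle library and one of the pair that stood apart. Without both libraries of that pair it was 0.21 (adjusted p = 0.122), and over single omissions it ran from 0.14 to 0.25 (adjusted p from 0.0496 to 0.481). At 1 h the log2 difference of Dnaja3 was -0.09, and the difference between both effects was 0.27 (adjusted p = 0.192). The latter was called without vehicle replicate 1 of 4 h.

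Among the proteases of the matrix, Lonp1, which degrades oxidised and misfolded proteins, ran from 112 to 128 CPM in vehicle (median 117) and from 113 to 128 CPM in MitoCDNB (median 119) at 1 h. At 4 h it ran from 105 to 122 CPM (median 116) and from 110 to 126 CPM (median 118). The log2 difference was 0.02 at both times, with a 95% interval of -0.09 to 0.13. Its SD within groups, 0.074 on the log2 scale, was the smallest of the members. Clpp, the proteolytic core of the ClpXP protease, ran from 28.3 to 30.9 CPM in vehicle (median 29.1) and from 27.9 to 32.4 CPM in MitoCDNB (median 30) at 1 h, a log2 difference of 0.03 (-0.12 to 0.17). At 4 h it ran from 25.4 to 35.9 CPM (median 29.6) and from 28.6 to 34.9 CPM (median 30.4), a log2 difference of 0.04 (-0.10 to 0.18). None of the intervals of Lonp1 and Clpp reaches a 1.5-fold change. Afg3l2 and Spg7, subunits of the inner membrane m-AAA protease, and Htra2, a protease of the intermembrane space, differed by -0.04 to 0.06 on the log2 scale in both comparisons. Htra2 shares 25.6% of its exon length with Aup1 and 18.2% with Loxl3 on the other strand. Its value may include their reads, as the strand setting of the counting is not given.

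Clpx, the ATP-driven unfoldase that feeds ClpP, had the largest SD within groups of the members, 0.415 on the scale of log2(CPM + 0.5). That was higher than in 94.1% of tested genes. The added 0.5 compresses low values. The sparsely counted Tomm20l had larger SEs for treatment, 0.324 at 1 h and 0.297 at 4 h, against 0.242 and 0.243 for Clpx. At 1 h the vehicle libraries of Clpx held 77.5, 91.2, 130, 100, 96.2 and 102 CPM and the MitoCDNB libraries 109, 141, 153, 143, 130 and 89.3 CPM in replicate order. At 4 h the vehicle libraries held 109, 78.3, 54.1, 47.8, 51.4 and 57.4 CPM and the MitoCDNB libraries 88.0, 182, 78.9, 76.3, 59.7 and 61.0 CPM. The highest library of each 4 h group is the library that stood apart on the second principal component. The log2 difference of Clpx was 0.36 (-0.15 to 0.86, adjusted p = 0.512) at 1 h and 0.46 (-0.05 to 0.96, adjusted p = 0.410) at 4 h, or 0.33 (adjusted p = 0.318) at 4 h without these 2 libraries. Leaving out 1 of them moved the 4 h value further, to 0.65 (adjusted p = 0.136) without vehicle replicate 1 and to 0.14 (adjusted p = 0.838) without MitoCDNB replicate 2. In both comparisons the groups overlapped, and the upper bounds allow a rise larger than 1.5-fold.

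The prohibitins Phb and Phb2 form a ring scaffold in the inner membrane. Phb differed by -0.01 (-0.13 to 0.11) at 1 h and by -0.00 (-0.12 to 0.12) at 4 h. Phb2 ran from 108 to 142 CPM in vehicle (median 128) and from 127 to 155 CPM in MitoCDNB (median 142) at 4 h. On the log2 scale the difference was 0.15 (SE 0.0721, adjusted p = 0.342), with 5 of 6 MitoCDNB libraries above the vehicle mean and overlapping ranges. It was the smallest p of the proteases and prohibitins at that time.

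**Figure D2:**
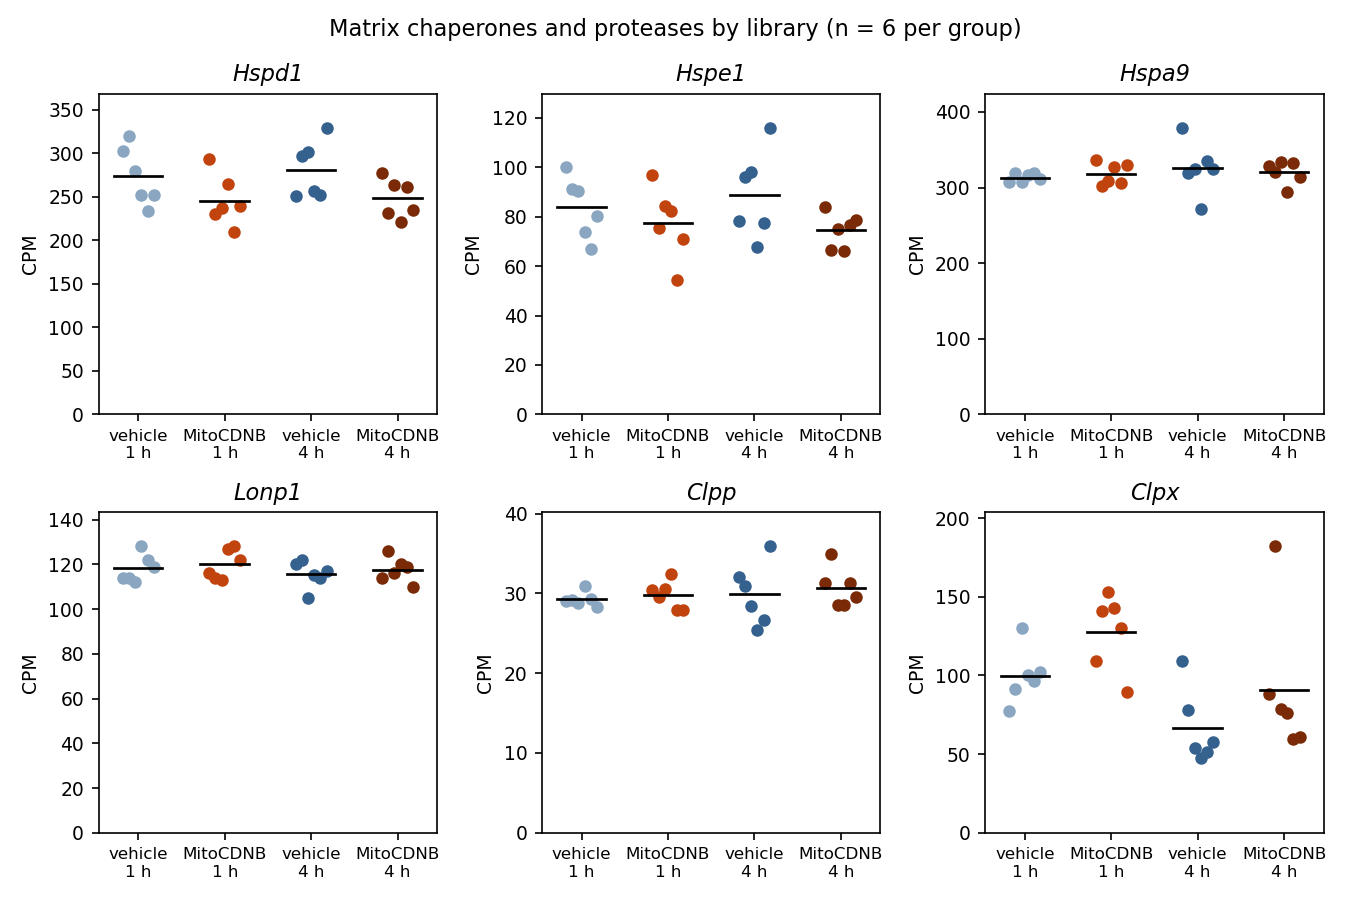
CPM (y axis, from 0) of 3 matrix chaperones and 3 matrix protease genes in each library (points, 6 per group) with the group mean (line). All 4 groups of Hspa9, Lonp1 and Clpp lie at a similar level, while Clpx spans 47.8 to 182 CPM.

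In the TOM complex the largest difference at 1 h was that of Tomm40l, a paralog of the channel gene Tomm40. Its vehicle libraries held 90.5, 65.9, 54.6, 127, 123 and 84.3 CPM and its MitoCDNB libraries 55.5, 60.8, 63.8, 65.3, 68.0 and 60.3 CPM. All 6 MitoCDNB libraries lay below the vehicle mean and they varied little, while the vehicle libraries varied widely and reached below them. The log2 difference was -0.54 (SE 0.168, adjusted p = 0.054). It did not pass the test here, but it did with DESeq2 (adjusted p = 0.0213), with limma-voom (adjusted p = 0.0249), without vehicle replicate 2 (-0.62, adjusted p = 0.0308) or 3 (-0.65, adjusted p = 0.00976), and within replicates 4 to 6 (-0.78, adjusted p = 0.0448). Within replicates 1 to 3 it was -0.23 (adjusted p = 0.725), with the replicate block -0.48 (adjusted p = 0.0835), and without vehicle replicate 4 it was -0.43 (adjusted p = 0.16).

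The Tomm40l value cannot be read as Tomm40l alone. The gene lies on the minus strand of chromosome 1 (171216011 to 171222514, mm10), and 3304 bases, 64.3% of its exon length, also belong to exons of Nr1i3, which codes for the nuclear receptor CAR, on the other strand. Whether the counting used strand is not given in the sources used here. The ratio of both counts stayed between 1.31 and 2.1 (median 1.87) over 24 libraries, while the Tomm40l count varied 2.98-fold. With group means removed, their log2 CPM had a Pearson r of 0.86 and a Spearman rho of 0.86 (permutation p = 1e-05 each, the smallest that the permutations can give, and 1e-05 after adjustment over 2 relations added after the overlaps were seen). Pearson's r was 0.80 without the 2 libraries farthest from the median, 0.89 at 1 h and 0.80 at 4 h. Nr1i3 itself had a log2 difference of -0.39 at 1 h (adjusted p = 0.268).

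**Figure D3:**
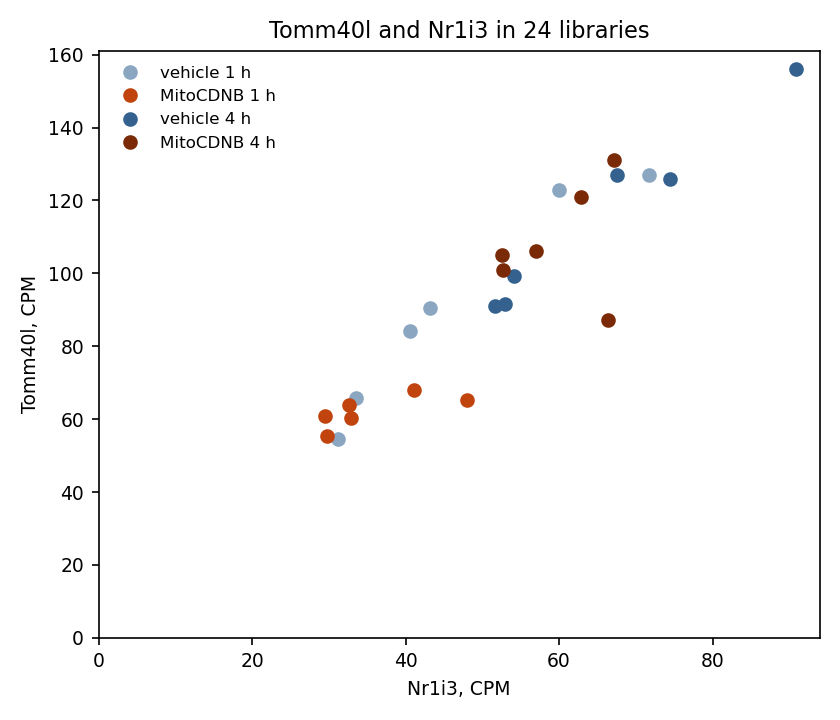
CPM of Tomm40l (y axis) against CPM of Nr1i3 (x axis), whose exons overlap on opposite strands, with 1 point per library (24 in all) coloured by group. Over all 24 libraries high values of one go with high values of the other (Pearson r of 0.86 with group means removed), and most MitoCDNB libraries of 1 h lie at the low end of both.

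Of the other TOM genes, none passed the test for treatment. Tomm40 had the smallest p of all members at 4 h. Vehicle libraries ran from 26.4 to 31.5 CPM (median 29.3) and MitoCDNB libraries from 30.3 to 34.8 CPM (median 34.1), and all 6 MitoCDNB libraries lay above the vehicle mean. Replicate 2 alone, one of the pair that stood apart, reached into the vehicle range. On the log2 scale the difference was 0.21 (SE 0.0627, adjusted p = 0.0997), and DESeq2 (adjusted p = 0.0434) and limma-voom (0.25, adjusted p = 0.035) called it. At 1 h it was -0.05, and the difference between both effects was 0.26 (SE 0.0891, adjusted p = 0.103). Tomm70a, a receptor for chaperone-bound precursors, ran from 56.5 to 70.1 CPM in vehicle (median 65.7) and from 55.5 to 61.1 CPM in MitoCDNB (median 57.6) at 4 h. All 6 MitoCDNB libraries lay below the vehicle mean, and the log2 difference was -0.15 (SE 0.0528, adjusted p = 0.182). The receptor gene Tomm20 differed by 0.13 at 1 h (adjusted p = 0.276) and -0.00 at 4 h, and Tomm22, the central receptor, by 0.03 and -0.13. The small subunits Tomm5, Tomm6 and Tomm7 differed by -0.09 to 0.01 at 1 h and by -0.09 to 0.21 at 4 h. Tomm6 and its antisense row Tomm6os share 219 exon bases, 19.4% of Tomm6, and kept a count ratio of 1.29 to 1.47 over all libraries. Tomm6 also shares 859 exon bases, 76.0% of its own, with Gm21981 on the same strand. Gm21981 has no row of its own among the counts, and it shares 958 bases, 32.5% of Tomm6os, on the other strand. Tomm6os differed by -0.02 and 0.07. It also shares 1221 exon bases, 41.5% of its own, with Prickle4 on the other strand, and reads in such shared stretches cannot be told apart. Tomm34, a cytosolic co-chaperone, differed by 0.18 (-0.04 to 0.41) and -0.13 (-0.35 to 0.10), and Tomm20l by -0.06 (-0.73 to 0.61) and -0.21 (-0.83 to 0.40).

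Of the TIM22 and TIM23 translocases, Timm17a, a subunit of the TIM23 channel, had the smallest p of this role at 1 h. Its libraries ran from 9.99 to 14.6 CPM in vehicle (median 11.9) and from 12 to 14.6 CPM in MitoCDNB (median 13.4), with all 6 MitoCDNB libraries above the vehicle mean. The log2 difference was 0.18 (SE 0.0869, adjusted p = 0.279) and at 4 h 0.16 (adjusted p = 0.420). Timm50, the receptor that hands presequences to TIM23, had the smallest p at 4 h, with 17.1 to 22.6 CPM in vehicle (median 20.1) and 20 to 22.7 CPM in MitoCDNB (median 22.2). On the log2 scale the difference was 0.14 (SE 0.066, adjusted p = 0.333), against -0.07 at 1 h. The channel gene Timm23, Timm17b, Timm21, the motor anchor Timm44 and the carrier translocase gene Timm22 differed by -0.09 to 0.15 on the log2 scale in both comparisons.

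The small TIM chaperones work as rings of Timm9 with Timm10 and of Timm8a1 with Timm13. At 1 h Timm9 had the smallest p, with 10.7 to 13.7 CPM in vehicle (median 12.2), 9.73 to 12.5 CPM in MitoCDNB (median 10.3) and a log2 difference of -0.21 (SE 0.0992, adjusted p = 0.269). At 4 h it was Timm10, with 10.3 to 14.9 CPM in vehicle (median 14), 12.5 to 17 CPM in MitoCDNB (median 16.4) and a log2 difference of 0.19 (SE 0.103, adjusted p = 0.427). Timm8a1, Timm8b, Timm13 and Timm10b differed by -0.07 to 0.05 in both comparisons. At 4 h Timm9 had -0.13 beside 0.19 in Timm10, and Timm8a1 had -0.02 beside -0.01 in Timm13, and none of these passed the test.

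Between the times some members were called. Most of these were Timm and Tomm rows, which also make up most of the tested members, 11, 7 and 6 of 38 by role. In vehicle, 5 of 38 members rose from 1 h to 4 h and 0 fell, 13.2% of the members, where 5.44% of all tested genes were called, 2.99% higher and 2.46% lower. In MitoCDNB, 10 of 38 rose and 0 fell, 26.3% of the members, where 28.5% of all tested genes were called, 15.1% higher and 13.4% lower. The members' median log2 differences were 0.08 and 0.06, against -0.00 and -0.01 over all tested genes. All libraries of 4 h carry the numbers 1 to 12 and all of 1 h the numbers 13 to 24, so time and library order cannot be told apart. The 4 of 5 neutrophil markers in the table summed to 6.82 to 10.7 CPM at 1 h and 0.56 to 1.7 CPM at 4 h in MitoCDNB, and to 1.62 to 5.71 and 0.466 to 4.64 CPM in vehicle, and 3 of 3 tested were called lower in MitoCDNB. Of 6 endothelial markers, 1 was called higher and 3 lower in MitoCDNB, with sums of 170 to 207 CPM at 1 h and 155 to 181 CPM at 4 h, and 0 in vehicle (148 to 195 and 167 to 198 CPM). Of 6 Kupffer cell markers, all negative in MitoCDNB, 1 was called lower there (177 to 212 and 122 to 190 CPM) and 0 in vehicle (159 to 223 and 130 to 403 CPM). The part of these cells in the result was not tested. With replicates 1 to 3 as the only 1 h libraries, 2 members were called in vehicle, Tomm40 and Timm10, where 177 of all tested genes were, and 8 in MitoCDNB, where 2395 were.

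Tomm40, the channel itself (chromosome 7, 19701313 to 19715438, mm10), had the smallest p in both treatments. In vehicle it ran from 19.8 to 24.7 CPM at 1 h (median 22.6) and from 26.4 to 31.5 CPM at 4 h (median 29.3), without overlap. The rise was 0.39 on the log2 scale (SE 0.063, adjusted p = 6.71e-04, 1.31-fold). In MitoCDNB it ran from 20 to 23.2 CPM (median 20.8) and from 30.3 to 34.8 CPM (median 34.1), again without overlap, a rise of 0.66 (SE 0.0632, adjusted p = 4.55e-08, 1.58-fold). Groups without overlap, the later higher, were seen in 2 members in vehicle, Tomm40 and Timm10, where 1.3% of all tested genes showed this and 1.2% the opposite. In MitoCDNB there were 6, Tomm40, Timm10, Timm17a, Dnaja3, Tomm40l and Timm22, where 7% did and 6.05% showed the opposite.

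Timm10 (chromosome 2, 84826997 to 84830213) had the largest rise of the called members in both treatments. It ran from 7.13 to 9.92 CPM (median 9.38) to 10.3 to 14.9 CPM (median 14) in vehicle, a log2 difference of 0.59 (SE 0.105, adjusted p = 0.00141, 1.51-fold). In MitoCDNB it went from 7.02 to 9.77 CPM (median 8.96) to 12.5 to 17 CPM (median 16.4), a log2 difference of 0.82 (SE 0.105, adjusted p = 2.67e-06, 1.77-fold). Its ring partner Timm9 rose by 0.33 in vehicle (SE 0.0982, adjusted p = 0.0493), from 10.7 to 13.7 CPM (median 12.2) to 12.9 to 17.2 CPM (median 15.3). That call was lost in 9 of 12 single omissions. In MitoCDNB Timm9 rose by 0.41 (adjusted p = 0.00302), from 9.73 to 12.5 CPM (median 10.3) to 10.1 to 16.6 CPM (median 14.4). Timm8a1, whose human counterpart is mutated in a deafness and dystonia syndrome, rose by 0.38 (SE 0.085, adjusted p = 0.00919) in vehicle, from 15.5 to 19.4 CPM (median 16.5) to 19.1 to 23.7 CPM (median 22.9). In MitoCDNB it rose by 0.43 (adjusted p = 4.58e-04), from 14.2 to 18 CPM (median 16.2) to 17.9 to 25.3 CPM (median 22.9). Its partner Timm13 did not pass the test, with 0.14 (adjusted p = 0.317) and 0.15 (adjusted p = 0.130), nor did Timm8b and Timm10b, with -0.09 to 0.04.

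Timm17a rose by 0.50 (SE 0.0865, adjusted p = 0.00123, 1.42-fold) in vehicle, from 9.99 to 14.6 CPM (median 11.9) to 14.1 to 20 CPM (median 17). In MitoCDNB it rose by 0.48 (SE 0.0862, adjusted p = 1.69e-04, 1.39-fold), from 12 to 14.6 CPM (median 13.4) to 17.4 to 20.6 CPM (median 18.8). Its paralog Timm17b had 0.10 (adjusted p = 0.509) and -0.01 (adjusted p = 0.932), so the 2 genes for this subunit gave different values, though the difference between them was not tested. Timm22 rose in MitoCDNB, from 6.17 to 7.29 CPM (median 6.33) to 7.85 to 8.97 CPM (median 8.35), by 0.34 (adjusted p = 0.00131), and had 0.10 (adjusted p = 0.492) in vehicle. The other translocase genes, Timm21, Timm23, Timm44 and Timm50, had -0.07 to 0.13 in both and were not called.

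**Figure D4:**
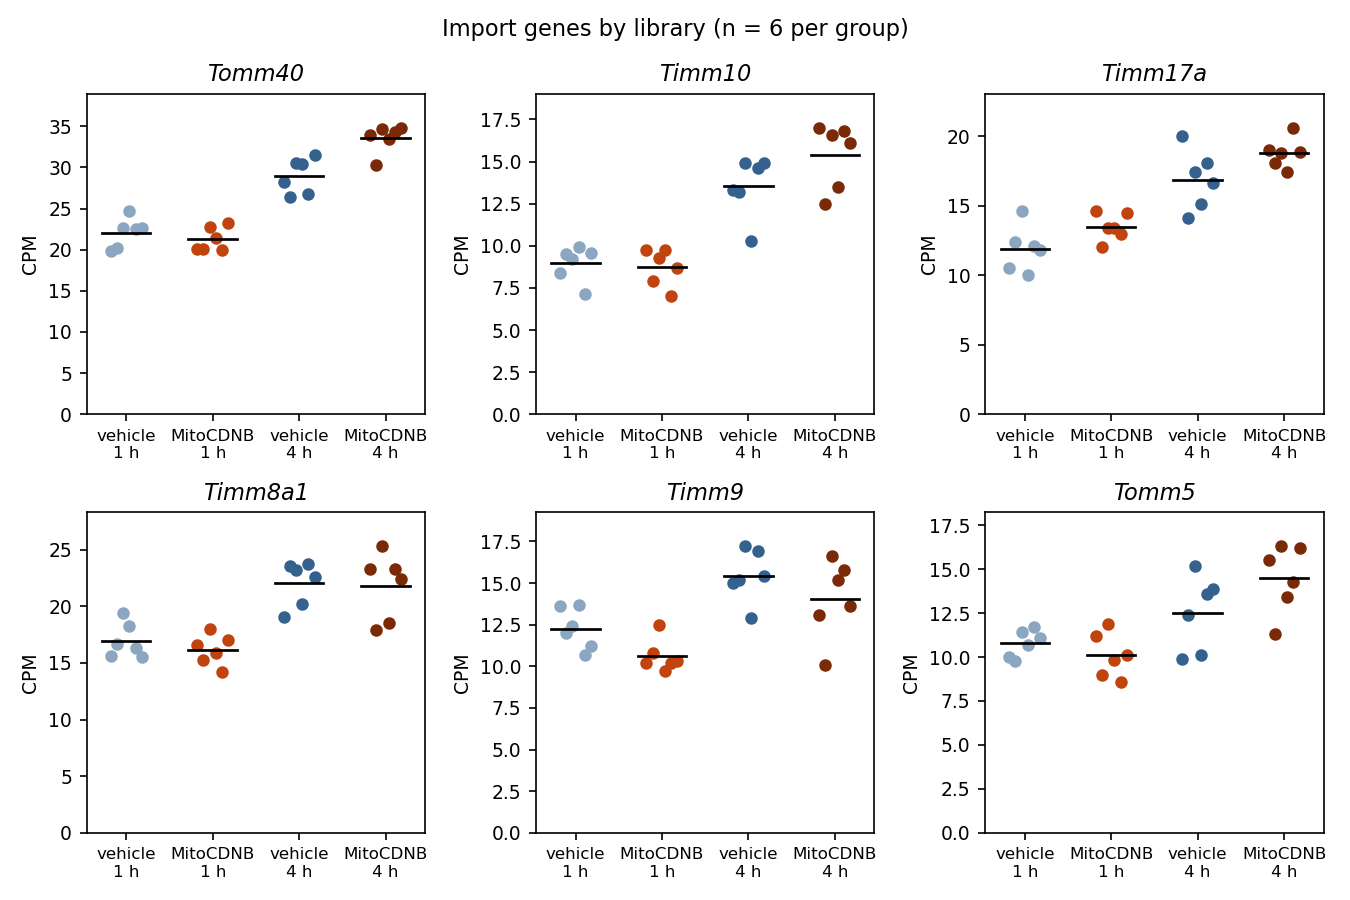
CPM (y axis, from 0) of 6 import genes in each library (points, 6 per group) with the group mean (line). Tomm40 and Timm10 are higher in every 4 h library than in any 1 h library of the same treatment.

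In MitoCDNB, besides Timm22, 4 members rose that were not called in vehicle. Tomm5, a small TOM subunit, went from 8.59 to 11.9 CPM (median 9.99) to 11.3 to 16.3 CPM (median 14.9), a log2 difference of 0.52 (SE 0.107, adjusted p = 6.91e-04). Dnaja3 went from 54.3 to 67.7 CPM (median 60.7) to 71.6 to 89.9 CPM (median 78.0), a log2 difference of 0.37 (SE 0.0774, adjusted p = 7.18e-04). Tomm40l went from 55.5 to 68.0 CPM (median 62.3) to 87.3 to 131 CPM (median 106), a log2 difference of 0.80 (adjusted p = 9.87e-04), beside 0.75 (adjusted p = 0.00393) in the overlapping Nr1i3. Phb2 went from 109 to 130 CPM (median 123) to 127 to 155 CPM (median 142), a log2 difference of 0.22 (adjusted p = 0.0228), and lost this call in 4 of 12 single omissions. In vehicle these genes had 0.22 (Tomm5), 0.11 (Dnaja3), 0.34 (Tomm40l) and 0.10 (Phb2) and were not called. As no difference between the treatment effects was called, which is the same contrast as the difference between the time effects, these rises are not shown to be particular to MitoCDNB.

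Both time comparisons rest on separate libraries. The 5 genes called in vehicle were all called in MitoCDNB, 5 of 5 and 5 of 10. Over all tested genes 71.2% of the vehicle calls and 13.6% of the MitoCDNB calls were also called in the other treatment. These shares do not require the same direction, which 526 genes called in both had. Across the 38 members the time differences had a Pearson r of 0.83 and 31 had the same sign. These values describe genes, which are not independent replicates, and both comparisons carry the same split in library number.

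**Figure D5:**
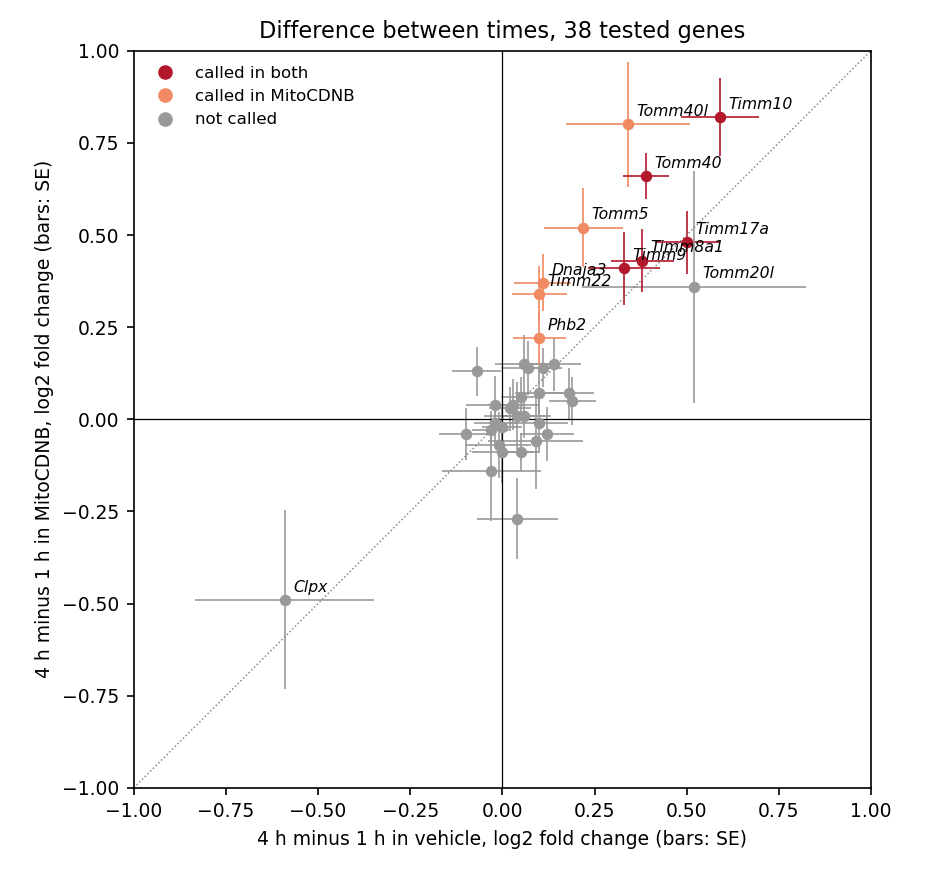
Log2 fold change from 1 h to 4 h in vehicle (x axis) and in MitoCDNB (y axis) for the 38 tested genes, with SE bars and a dotted line of equal change. The 5 genes called in both lie in the upper right, and Clpx lies apart at the lower left without a call.

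Of the chaperones, proteases and prohibitins, only Dnaja3 and Phb2, both in MitoCDNB, passed the test between the times. Hspd1 had 0.04 in vehicle and 0.01 in MitoCDNB, Hspe1 0.09 and -0.06, Hspa9 0.06 and 0.01, Lonp1 -0.03 and -0.03, Clpp 0.03 and 0.04, and none was called. Clpx had the most negative value of the members, -0.59 (SE 0.243, adjusted p = 0.173) in vehicle and -0.49 (SE 0.243, adjusted p = 0.141) in MitoCDNB. Without the 2 libraries of 4 h that stood apart, which are also the highest Clpx libraries of their groups, it was called in both, with -0.79 (adjusted p = 0.0031) and -0.81 (adjusted p = 3.06e-04). Limma-voom, which weights libraries by quality, also called it in both. The receptor gene Tomm20 had 0.19 (adjusted p = 0.0778) in vehicle and 0.05 in MitoCDNB, Grpel1 0.18 (adjusted p = 0.127) and 0.07, Afg3l2 0.11 and 0.14 (adjusted p = 0.263 and 0.0559), and the sparsely counted Tomm20l 0.52 and 0.36 (adjusted p = 0.371 and 0.420). Trap1, Phb, Spg7, Htra2, Tomm7, Tomm70a, Tomm22, Tomm6 and Tomm6os had -0.14 to 0.15 and were not called. Tomm34 had 0.04 in vehicle and -0.27 in MitoCDNB (adjusted p = 0.0688), and was called lower in MitoCDNB by limma-voom and without the 2 libraries.

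Partner genes were compared over 24 libraries with group means removed, as 4 relations with p-values adjusted over them. Hspd1 and Hspe1, which share a start region, had a Pearson r of 0.88 and a Spearman rho of 0.90 (permutation p = 1e-05 each, the smallest possible, adjusted p = 4e-05). The relation was as close without the 2 farthest libraries (0.88), at 1 h (0.88) and at 4 h (0.89), and within the 1 h replicates 1 to 3 and 4 to 6 it was 0.76 and 0.90. The prohibitins Phb and Phb2 had an r of 0.63 and a rho of 0.62 (permutation p = 5.3e-04 and 0.00166, adjusted p = 7.07e-04 and 0.00332), with 0.48 without the 2 farthest, 0.44 at 1 h and 0.76 at 4 h. Within the 1 h replicates 1 to 3 and 4 to 6 it was 0.80 and 0.88. Clpp and Clpx had an r of 0.53 and a rho of 0.52 (permutation p = 0.00812 and 0.0102, adjusted p = 0.00812 and 0.0136), with 0.68 without the 2 farthest, 0.34 at 1 h and 0.58 at 4 h. Within the 1 h replicates 1 to 3 and 4 to 6 that relation was -0.08 and 0.59. Hspa9 and Grpel1 had an r of 0.77 but a rho of 0.44 (permutation p = 1.5e-04 and 0.0317, adjusted p = 3e-04 and 0.0317). That r fell to 0.37 without the 2 farthest libraries and was 0.23 at 1 h and 0.88 at 4 h, so it rests on those libraries. Over all 703 pairs of members the median r was 0.14.

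Members varied little within groups. Their median SD on the scale of log2(CPM + 0.5) was 0.123, against 0.194 over all tested genes. Lonp1, Tomm70a, Afg3l2 and Trap1 lay lowest, at the percentiles 1.09, 1.5, 1.53 and 1.63 of tested genes. After Clpx, Tomm40l (0.308) and Tomm7 (0.253), a small TOM subunit, had the largest SDs. This scale compresses the spread of the sparsely counted Tomm20l (0.206).

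Other genes of the pathway were compared in the same way. Of 20 tested of 21 further import and processing genes, 14 further mitochondrial proteases and chaperones and 11 regulators of the mitochondrial unfolded protein response, 0 were called at 1 h and 0 at 4 h. Over all tested genes 6.57% were called at 1 h and only 0.824% at 4 h. At an unadjusted p under 0.05 there were 1, 2 and 3 at 1 h, and 3, 2 and 0 at 4 h. Of the 13833 tested genes, 2443 and 1981 had such a p. Atf5, a regulator of the mitochondrial unfolded protein response, had a log2 difference of 0.01 (adjusted p = 0.985) at 1 h and 0.18 (adjusted p = 0.497) at 4 h. Atf4, the shared effector of the integrated stress response, had 0.13 (adjusted p = 0.522) and -0.06 (adjusted p = 0.841), and Ddit3, which codes for CHOP, had -0.32 (adjusted p = 0.167) and 0.16 (adjusted p = 0.646). The difference between the treatment effects was called in 1 gene, Atad3a, an inner membrane ATPase, with -0.18 at 1 h, 0.20 at 4 h and a difference of 0.38 (SE 0.103, adjusted p = 0.0355). Over all tested genes 4.07% were called for this difference.

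Between the times, the further import genes had 0 called higher and 1 lower of 20 in vehicle (5%, against 5.44% of all tested genes) and 1 higher and 2 lower in MitoCDNB (15%, against 28.5%). The further proteases and chaperones had 1 higher and 0 lower of 14 in vehicle (7.14%), and 2 higher and 3 lower in MitoCDNB (35.7%). The regulators had 0 higher in both, with 3 lower of 11 in vehicle (27.3%) and 2 lower in MitoCDNB (18.2%). Chchd4, which oxidises the small TIM proteins as they enter the intermembrane space, rose in MitoCDNB from 5.93 to 8.16 CPM (median 7.57) to 7.96 to 14.6 CPM (median 12.6), by 0.69 (adjusted p = 1.52e-04), and had 0.37 (adjusted p = 0.0734) in vehicle. Dnajc11, a protein of the contact sites of both membranes, rose by 0.34 (adjusted p = 0.00979) and 0.43 (adjusted p = 1.65e-04), and Atad3a rose in MitoCDNB by 0.54 (adjusted p = 5.49e-06). The inner membrane peptidase gene Immp1l fell by 0.26 on the log2 scale in vehicle (adjusted p = 0.0331) and by 0.32 in MitoCDNB (adjusted p = 0.00179). In MitoCDNB the assembly factor gene Timmdc1 fell by 0.22 (adjusted p = 0.0228), and the stress protease genes Oma1, Yme1l1 and the scaffold gene Stoml2 by 0.34, 0.16 and 0.16 (adjusted p = 0.00825, 0.0348 and 0.0396). Of the regulators, Atf5, Ddit3 and Ppargc1a, a coactivator of mitochondrial biogenesis, fell in vehicle by 0.40, 0.48 and 0.92 (adjusted p = 0.0363, 0.0319 and 0.0417). In MitoCDNB Ppargc1a fell by 1.01 (adjusted p = 0.00503) and Cebpb, a hepatocyte and acute phase factor, by 1.04 (adjusted p = 0.00956).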

How the data were processed

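Poly(A) RNA from 24 liver samples, 6 per group, was made into libraries with the NEBNext Ultra kit, per the labels. Whole-number counts per gene were deposited by the authors for all samples in a single table. The submitters' processing notes name CASAVA 1.8.4, Trim Galore, HISAT2, DESeq2 and the build mm10. The counting tool, its annotation and its strand setting are not named in any source used here.

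From these counts, genes were kept by filterByExpr (minimum count 10, minimum total 15; 13833 of 24421 kept, 0.0306% of counts removed). Library sizes were scaled by TMM, and edgeR 4.0.16 (R 4.3.3, robust quasi-likelihood) fitted the 4 groups over the 24 libraries, with Benjamini-Hochberg adjustment over all tested genes. Intervals are 95% intervals from the quasi-likelihood fit. The scripts were tested on simulated data. Totals of 25.1 M to 37.2 M counts and a median SE of 0.0746 (1 h) and 0.074 (4 h) for the members set the precision. The intervals include the spread between libraries, while the floor at 0 (3 counts) covers counting error only. Correlations and SDs within groups used log2(CPM + 0.5). Permutation tests used 100000 permutations, two-sided.

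Every member was accounted for. Values per group were given for called members, for the member of each role with the smallest p in each treatment comparison, and for Hspd1, Hspe1, Hspa9, Lonp1 and Clpp. From each list of other genes up to 6 called per comparison, and Atf4, Atf5 and Ddit3, were named. Details of Clpx, Nr1i3 and the CCAAT motif were chosen after their values were seen. The members and lists were chosen with earlier results of these data known. Alternatives were DESeq2 1.42.0, limma 3.58.1 (voom), DESeq2 size factors, no filter beyond 1 count, a replicate block, omission of each library and subsets of libraries. No pair of libraries agreed within sampling noise. Exon lengths and overlaps came from GENCODE for mm10.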

Additional observations from a re-analysis of the deposited data

Results flagged for a closer look

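Of 152 sets of 6 values (38 genes in 4 groups), 14 held a library set far from the other 5 by Dixon's criterion (the gap to the nearest library over the range), 9.21%, where chance gives about 1 in 20. Vehicle replicate 4 at 4 h held 3 of them, with Timm10 at 10.3 CPM (others 13.2 to 14.9), Timm44 at 25.8 CPM (others 29.8 to 31.0) and Timm8b at 14.2 CPM (others 18.3 to 20.3). MitoCDNB replicate 2 at 4 h, which stood apart on the second principal component, also held 3, with Clpx at 182 CPM (others 59.7 to 88.0), Tomm40 at 30.3 CPM (others 33.5 to 34.8) and Tomm20l at 0.128 CPM (others 0.355 to 0.47). Vehicle replicate 1 at 4 h had Timm23 at 53.9 CPM (others 44.7 to 47.3).

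In MitoCDNB at 1 h, Timm13 was at 38.9 CPM in replicate 6 (others 44.7 to 47.8), Trap1 at 114 CPM in replicate 2 (others 121 to 124) and Timm8b at 16 CPM in replicate 5 (others 18.9 to 20.4). Timm21 was at 8.79 CPM in vehicle replicate 1 at 1 h (others 9.72 to 10.1) and at 7.35 CPM in MitoCDNB replicate 4 at 4 h (others 9.56 to 10.2). Htra2 was at 11.9 CPM in MitoCDNB replicate 6 at 4 h (others 9.43 to 10.3), and Tomm6os at 41.2 CPM in vehicle replicate 6 at 4 h (others 30.6 to 33.8).

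The effect of MitoCDNB on Atad3a differed between the times by 0.38 on the log2 scale (edgeR, adjusted p = 0.0355).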

How the results depend on the processing

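No called value of a named member changed sign among 1144 values under the alternatives, while 20 calls were lost and 14 gained. Of the uncalled values among them, 54 changed sign. For MitoCDNB against vehicle at 1 h, 1 member (Tomm40l) was called with DESeq2, 1 with limma-voom and 1 with replicates 4 to 6 alone, and 0 to 1 over single omissions, where leaving out vehicle replicate 2 or 3 made the call. At 4 h it was 1 (Tomm40) with DESeq2 and 1 with limma-voom, and 0 to 1 over omissions, where leaving out vehicle replicate 1 made Dnaja3 the call. The difference between the treatment effects gave 1 (Tomm40, 0.30, adjusted p = 0.0274) with limma-voom. Over omissions it gave 0 to 1, where leaving out vehicle replicate 1 of 4 h made Dnaja3 the call. For time in vehicle it was 2 with the 1 h replicates 1 to 3 alone, where fewer samples were tested, and 4 to 7 over omissions. Calls over all tested genes also moved, from 753 to 177 with those replicates and to 480 to 749 over omissions. For time in MitoCDNB 9 to 11 members were called over omissions, beside 3457 to 3901 of all tested genes (3940 with all libraries). Over all tested genes, 114 were called at 4 h, against 348 with DESeq2 and 227 with limma-voom. Other causes were not tested.

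The labels state no pairing by number. With group means removed, same-numbered samples of 1 time correlated at -0.233 to 0.317. The same number gave the closest match for replicate 5 at both times and for replicate 6 at 4 h. Such correlations cannot show whether samples were paired by design. With the replicate block within time, 0 members were called at 1 h, 0 at 4 h and 0 for the difference. Over all tested genes these fits called 835, 84 and 504. For time, where only a block across times, added after seeing the data, could be fitted, 4 members were called in vehicle and 10 in MitoCDNB. There 677 and 3917 of all tested genes were called. Also added then were the counts without the overlapping genes. So were the results without the 2 libraries of 4 h that stood apart, for time and for the difference between the treatment effects.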

Other observations

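Clpx was compared with the 13832 other tested genes over 24 libraries with group means removed, a look chosen after its spread was seen. Its nearest gene was Elovl3, a fatty acid elongase, with a Pearson r of 0.92 (0.96 at 1 h and 0.91 at 4 h), followed by St5 (0.90) and Ubxn1 (0.88). The most opposite were the cell cycle kinase gene Wee1 (-0.90, with -0.75 at 1 h and -0.94 at 4 h) and the clock gene Per3 (-0.89, with -0.82 and -0.95). These are descriptions over libraries that share their depth and preparation.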
